A study of Mus musculus with 11 samples.

Results

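The comparison is that of R2 with R1 fetal liver cells, the first step of the erythroid series sorted by Ter119 and CD71. Its members are 5 of the 11 arrays of the series, chosen by their labelled stage: 3 arrays of R2 and 2 of R1. The cells came from livers of untreated C57/Bl6 embryos at stage E14.5, the middle of gestation. They were stained for Ter119, a surface antigen of maturing erythroid cells, and CD71, the transferrin receptor, and flow-sorted straight into lysis buffer. By that scheme the R1 fraction is the least mature, with little Ter119 and less CD71 than R2, which comes next. The other 6 arrays (3 of R3, 1 of R4 and 2 of R5) entered the fit only to share the estimate of the spread, and their levels are given where they place an R2 value. Whether the arrays of 1 stage stem from different litters or different sorts is not stated, so the p-values rest on a spread between arrays that may be purely technical. Signals are given as log2 of the deposited linear intensity, so a difference of 1 is a doubling. The level of 1 gene is not comparable with that of another.

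Red cell formation starts from progenitors that depend on the receptor tyrosine kinase Kit and then on erythropoietin, a hormone that binds the receptor encoded by Epor. The transcription factors GATA1 and KLF1 switch on the genes of heme synthesis, iron uptake, the membrane skeleton and later the globins. Meanwhile genes of multipotent and myeloid progenitors, such as Spi1 and Gata2, are shut down. The midgestation liver is the main site of this process in the mouse embryo, and it also holds hepatoblasts, macrophages and progenitors of other blood lineages.

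Of 13100 genes tested, 61 differed between R2 and R1 (limma, Benjamini-Hochberg adjusted p under 0.05), which is 0.466% of the genes. Of these, 46 rose in R2 (0.351%) and 15 fell (0.115%), and in all 61 the 3 R2 arrays lay entirely above or below the 2 R1 arrays. Such separation is common on so few arrays: 1858 genes (14.2%) lay above R1 on every R2 array and 2896 (22.1%) below. An unadjusted p under 0.05 was reached by 1750 genes, of which 516 were higher in R2 and 1234 lower. The calls stood close to the threshold, with adjusted p between 0.0335 and 0.0491, and they depended on single arrays. The limma fit called 0 genes once replicate 2 of R1 was left out, and also 0 once replicate 2 of R2, replicate 3 of R2 or a single R3 array was left out. It called 15 when replicate 1 of R1 was left out and 11 when replicate 1 of R2 was. The labels tie RNA extraction dates to sets of replicates without defining a set, so the replicate number may stand for a date, and a fit with it as a block also called 0 genes. The direction of all 61 was kept in every one of these fits. With no overlap between the stages in these genes, leaving out 1 array could not have reversed it. In the authors' deposited table, which tests each of 45037 probe sets, 0 had an R1 to R2 p-value under 0.05 and the lowest was 0.143308. These p-values matched adjusted ones from limma's defaults within 0.000952, so they compare with the adjusted and not with the unadjusted counts.

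Replicate 3 of R2 stood apart within its stage, and the 2 R1 arrays differed from each other. With 2 arrays, neither of R1 can be called the odd one. Across genes, which are not independent replicates, R2 replicates 1 and 2 correlated at r = 0.950, and replicate 3 correlated with them at 0.918 and 0.915. The R1 arrays correlated with each other at 0.927, while replicate 1 of R1 reached 0.937 and 0.943 with replicates 1 and 2 of R2. The lowest value among the 5 arrays, 0.816, was that between replicate 3 of R2 and replicate 2 of R1. Median signal was 53.6, 58.4 and 66.9 on the R2 arrays, against 62.5 and 92.1 on the R1 arrays. The probe set for the 3' end of pyruvate carboxylase, a measure of RNA integrity, exceeded that for its 5' end by 0.75, 1.36 and 1.84 log2 units in R2 and by 0.20 and 0.38 in R1, without overlap. For actin the same difference was 0.32, 0.79 and 0.71 in R2 and 0.35 and 0.25 in R1, which overlap, and the part of either in the results was not tested. The median change of all genes was -0.05, and 47.0% of the changes were positive.

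**Figure D1:**
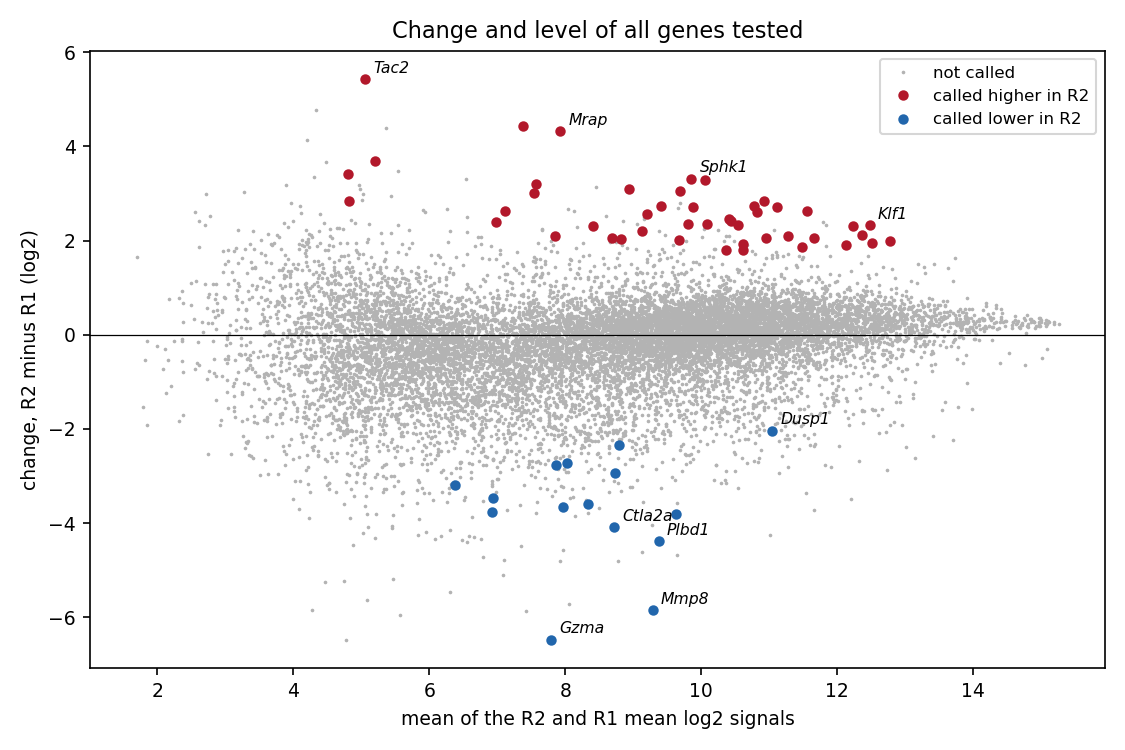
Change from R1 to R2 (R2 minus R1, log2) against the mean of the R2 and R1 mean log2 signals, 1 point for each of the 13100 genes tested. Red points are the 46 genes called higher in R2 and blue points the 15 called lower (limma adjusted p under 0.05). Many uncalled genes (grey) lie as far below 0 as the called ones, while the called rises stand at the upper edge of the cloud.

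Promoters are shown for genes that rose, because the GATA and KLF1 factors of erythroid cells act at such sites. The RefSeq promoter table for GRCm38.p6 gives 250 bases before to 50 bases after each annotated start, and it held 38 of the 46 genes that rose (53 windows) and 12 of the 15 that fell (15 windows). Below, the whole window is printed for Epor, Klf1 and Alad. Where a gene has several annotated starts, the first window by position that holds a GATA or KLF1 motif is used, or else the first. A stretch of 100 bases is printed for the other 4, which had the largest rises among genes holding a GATA or KLF1 motif. Capitals mark AGATAA, the motif of GATA factors, which reads TTATCT on the other strand. They also mark CACGTG, the E-box bound by MYC and MAX proteins.

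Epor (chr9:21963527-21963826, minus strand): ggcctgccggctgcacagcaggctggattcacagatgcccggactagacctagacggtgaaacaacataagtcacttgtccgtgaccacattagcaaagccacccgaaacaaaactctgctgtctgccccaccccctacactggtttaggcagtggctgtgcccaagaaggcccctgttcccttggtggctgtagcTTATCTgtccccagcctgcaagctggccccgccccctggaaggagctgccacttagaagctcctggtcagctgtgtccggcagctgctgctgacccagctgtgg

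Klf1 (chr8:84901732-84902031, plus strand): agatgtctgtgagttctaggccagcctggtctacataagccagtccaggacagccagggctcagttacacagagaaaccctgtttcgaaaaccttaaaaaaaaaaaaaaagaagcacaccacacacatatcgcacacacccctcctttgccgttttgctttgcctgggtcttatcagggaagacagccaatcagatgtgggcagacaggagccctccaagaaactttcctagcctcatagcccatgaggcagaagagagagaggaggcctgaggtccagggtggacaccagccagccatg

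Alad (chr4:62519860-62520159, minus strand): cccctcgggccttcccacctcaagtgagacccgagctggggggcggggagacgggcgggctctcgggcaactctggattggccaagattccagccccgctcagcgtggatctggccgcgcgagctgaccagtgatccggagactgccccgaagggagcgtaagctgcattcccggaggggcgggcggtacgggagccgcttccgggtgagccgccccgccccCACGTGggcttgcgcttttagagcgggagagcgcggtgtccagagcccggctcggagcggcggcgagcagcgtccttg

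Myh7b (chr2:155611063-155611162, plus strand): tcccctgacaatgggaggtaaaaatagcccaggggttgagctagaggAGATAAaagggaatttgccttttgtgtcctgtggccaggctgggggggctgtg

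Sphk1 (chr11:116532273-116532372, plus strand): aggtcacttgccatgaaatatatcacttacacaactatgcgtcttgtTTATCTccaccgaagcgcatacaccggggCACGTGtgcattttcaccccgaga

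Pdia2 (chr17:26199075-26199174, minus strand): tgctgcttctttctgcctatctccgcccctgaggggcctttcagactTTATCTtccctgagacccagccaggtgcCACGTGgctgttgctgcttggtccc

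Slc39a8 (chr3:135825580-135825679, plus strand): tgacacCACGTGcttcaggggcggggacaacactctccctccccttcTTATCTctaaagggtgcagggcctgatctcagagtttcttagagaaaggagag

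Letters were searched on both strands. AGATAA stood in 10 of the 53 windows of genes that rose (18.9%), in 1 of the 15 of genes that fell (6.67%), in 7.04% of the windows of all tested genes and in 11.2% of all windows in the table. In Epor the match began 54 bases before the annotated start, in Slc39a8 30 bases before it, in Sphk1 124 and in Myh7b 133 bases before it. Pdia2 had 2 matches, of which 1 lies outside the stretch shown. Icam4, Pklr and Rhd were the other named genes that held it. CACGTG was in 22.6% of the windows of genes that rose, 20.0% of those of genes that fell, and 9.46% and 7.15% of the windows of tested genes and of all genes. In Alad it lay 28 bases before the start. CCACACCC, the box bound by KLF1, was in 1.89% of the windows of genes that rose (Tfr2 alone), 0 of those that fell, and 3.83% of those of tested genes. GAGGAAGT, a site of the myeloid factor PU.1, was in 0 windows of genes that rose and in 2 of genes that fell, those of Mmp8 and S100a4, beside 3.13% for tested genes. The window of Klf1 held none of these letters. A match is a description of the sequence and no evidence of binding.

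The erythropoietin receptor gene was among the clearest rises. Epor had 11.46, 11.55 and 11.89 log2 signal in R2 and 9.27 and 9.09 in R1, a change of 2.45 ± 0.34 (SE; 3 R2 and 2 R1 arrays; limma adjusted p = 0.0335). Both stages were tight, and the gap between them exceeded the range within either. Its change lay between 2.32 and 2.54 with any 1 array left out. The rest of the erythropoietin signalling list did not move with the receptor: of 21 measured members, 6 changes were positive and 15 negative, with a median of -0.52, or -0.22 without replicate 2 of R1. Besides Epor the only call was Osm, a cytokine gene of the oncostatin M pathway that shares JAK and STAT signalling, with 6.61, 6.44 and 6.42 in R2 and 9.13 and 9.37 in R1 (-2.76 ± 0.41, limma adjusted p = 0.0335). Among the members with the largest changes, 3 did not pass the test. Socs3, an inhibitor of the pathway, had 6.74, 5.96 and 5.19 in R2 and 7.92 and 8.61 in R1 (limma adjusted p = 0.144), and Dusp6, a phosphatase of ERK, had 6.83, 7.56 and 4.66 in R2 and 9.22 and 9.97 in R1 (limma adjusted p = 0.0897). Gab1, an adaptor of the receptor, ran the other way, with 9.75, 10.09 and 11.12 in R2 and 8.70 and 8.67 in R1 (limma adjusted p = 0.158).

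Of the erythroid transcription factors, Klf1 rose. It had 13.70, 13.14 and 14.09 in R2 and 11.80 and 10.82 in R1, a change of 2.33 ± 0.38 (SE; limma adjusted p = 0.0375). The lowest R2 array stood well above the higher R1 array. Gata1 had 11.70, 11.62 and 12.35 in R2 and 10.72 and 9.67 in R1 (1.69 ± 0.36, limma adjusted p = 0.0848), which is separation of the stages without a call. Gfi1b, a repressor that works with GATA1, had 11.45, 11.29 and 11.83 in R2 and 10.03 and 9.46 in R1 (1.78 ± 0.42, limma adjusted p = 0.104). Sox6, which acts late in erythroid cells, had 7.15, 8.68 and 9.65 in R2 and 6.27 and 7.57 in R1, so the stages overlapped. In the list of 26 measured factors, 17 changes were positive and 9 negative, and the median was 0.42. Above R1 on every R2 array lay 10 of the 26, beside 14.2% of all genes. Below R1 on every R2 array lay 3 of the 26, beside 22.1% of all genes.

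Progenitor genes lay lower in R2, and none of them was called. Of 31 measured progenitor regulators, 30 had negative changes, with a median of -1.89, beside -0.05 for all genes. Below R1 on every R2 array lay 21 of the 31, beside 22.1% of all genes. Gata2, which GATA1 replaces as erythroid cells mature, had 8.89, 9.10 and 7.63 in R2 and 10.78 and 10.09 in R1 (-1.89 ± 0.51, limma adjusted p = 0.155). Spi1, which encodes PU.1, had 10.72, 10.80 and 7.91 in R2 and 11.84 and 11.43 in R1 (-1.82 ± 0.74, limma adjusted p = 0.318). In both genes replicate 3 of R2 was much the lowest array, and without it the changes were -1.44 for Gata2 and -0.87 for Spi1. Cd34, a surface marker of progenitors, showed the same spread, with 10.49, 10.56 and 6.82 in R2 and 12.50 and 11.32 in R1. Hoxa9, a homeobox gene of stem and progenitor cells, had 6.90, 6.98 and 5.29 in R2 and 9.68 and 9.98 in R1 (-3.44 ± 1.05, limma adjusted p = 0.196). Mycn had 5.63, 4.91 and 2.75 in R2 and 8.84 and 9.45 in R1 (-4.71 ± 1.39, limma adjusted p = 0.183). The median of the list was -1.21 without replicate 3 of R2 and -1.79 without replicate 2 of R1.

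Kit differed from this group. It had 11.78, 11.93 and 11.77 in R2 and 11.87 and 11.25 in R1, a difference of 0.27 ± 0.44 (limma adjusted p = 0.859), so the R2 arrays fell around the higher R1 array. Myb, a progenitor factor of the list named here after its values were seen, also overlapped, with 13.40, 13.31 and 12.81 in R2 and 13.47 and 13.36 in R1 (-0.24 ± 0.54, limma adjusted p = 0.89). Receptors for cytokines and growth factors, which make progenitors responsive to other lineages' signals, were mostly lower. Of 35 changes 33 were negative, with a median of -1.33 and 0 called. Below R1 on every R2 array lay 24 of the 35, beside 22.1% of all genes. Without replicate 3 of R2 the median was -0.82. Il7r, the interleukin 7 receptor of lymphoid progenitors, had 8.23, 9.21 and 6.18 in R2 and 8.98 and 11.82 in R1, so its stages overlapped. Csf2rb2, a receptor chain of the interleukin 3 family in the mouse, had 7.33, 8.07 and 5.82 in R2 and 9.30 and 9.52 in R1 (-2.34 ± 0.56, limma adjusted p = 0.108).

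Heme synthesis genes were higher in R2 for nearly every enzyme. Of 8 measured enzymes, 7 changes were positive and 1, Alad, was called, with a list median of 1.48. Above R1 on every R2 array lay 6 of the 8, beside 14.2% of all genes. Alad, which makes porphobilinogen, had 13.12, 13.18 and 13.97 in R2 and 11.67 and 10.95 in R1 (2.11 ± 0.33, limma adjusted p = 0.0335). Uros, a later enzyme of the pathway, had 10.90, 11.19 and 12.27 in R2 and 9.49 and 9.24 in R1 (2.09 ± 0.40, limma adjusted p = 0.0602). Cpox had 12.69, 12.91 and 13.40 in R2 and 11.41 and 9.79 in R1 (2.40 ± 0.56, limma adjusted p = 0.106). Fech, the enzyme that inserts iron, had 12.56, 13.08 and 13.71 in R2 and 11.14 and 12.06 in R1 (1.52 ± 0.37, limma adjusted p = 0.12). In all 4 of these genes the stages were separate and replicate 3 of R2 was the highest array. Beyond the list, the heme-binding protein gene Hebp1 rose, with 12.41, 12.70 and 13.48 in R2 and 10.65 and 9.83 in R1 (2.62 ± 0.38, limma adjusted p = 0.0335).

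Some members of the erythroid lists overlapped between the stages, with replicate 2 of R1 high. The 3 given here were picked after their values were seen and stand for no group. Alas2, the erythroid first enzyme of heme synthesis, had 8.18, 11.10 and 10.77 in R2 and 6.17 and 11.69 in R1. Slc4a1, the anion exchanger band 3, had 9.23, 12.67 and 13.13 in R2 and 8.24 and 12.12 in R1. Slc25a37, the mitochondrial iron importer, had 10.92, 12.98 and 12.91 in R2 and 10.51 and 12.68 in R1. In each of these, replicate 1 was the lower R1 array and also the lowest R2 array. The globin genes, a list of their own, overlapped too. Hbb-b2, an adult beta globin, had 6.42, 9.67 and 8.43 in R2 and 5.46 and 9.89 in R1, and Hbb-y, an embryonic one, had 10.46, 12.57 and 11.69 in R2 and 11.60 and 12.61 in R1. Of 6 measured globin genes 0 were called, 0 separated the stages, and the changes of 4 changed sign when 1 array was left out: Hbb-bh1, Hbb-b2, Hbb-y and Hba-x. Globin copies are near identical, so their probe sets may share signal. In R3 Hbb-b2 averaged 13.98 (3 arrays), and each R3 array lay above every R2 array, while Hbb-y averaged 14.37 with its lowest R3 array, at 12.13, below the highest R2 array. The median of the globin list was -0.48, and between -0.99 and 0.14 with 1 array left out.

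Blood group and membrane protein genes held 4 of the 46 rises. Of 16 measured genes for band 3, glycophorins and blood group proteins, 4 rose (Rhd, Icam4, Ermap and Slc14a1), 0 fell, and the median was 1.57. Above R1 on every R2 array lay 10 of the 16, beside 14.2% of all genes. Rhd, of the Rh complex, had 11.67, 12.56 and 13.17 in R2 and 9.38 and 10.15 in R1 (2.70 ± 0.43, limma adjusted p = 0.0345). Icam4, an adhesion ligand of erythroid cells, had 11.42, 11.22 and 12.30 in R2 and 9.61 and 8.87 in R1 (2.41 ± 0.38, limma adjusted p = 0.0335). Ermap, which carries the Scianna antigens in humans, had 13.56, 13.67 and 14.06 in R2 and 12.13 and 11.43 in R1. In these 3 genes every R2 array stood above both R1 arrays, as it did in the next. Slc14a1, a urea transporter that carries the Kidd antigens in humans, had 11.20, 11.36 and 12.00 in R2 and 10.09 and 9.34 in R1. The partner of Rhd, Rhag, had 12.03, 12.87 and 13.43 in R2 and 10.49 and 11.30 in R1 (1.88 ± 0.52, limma adjusted p = 0.166), separate but not called. The water channel Aqp1, also a blood group protein, lay at 11.50 or above on every R2 array, and at 9.92 and 9.99 in R1 (2.23 ± 0.56, limma adjusted p = 0.133).

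**Figure D2:**
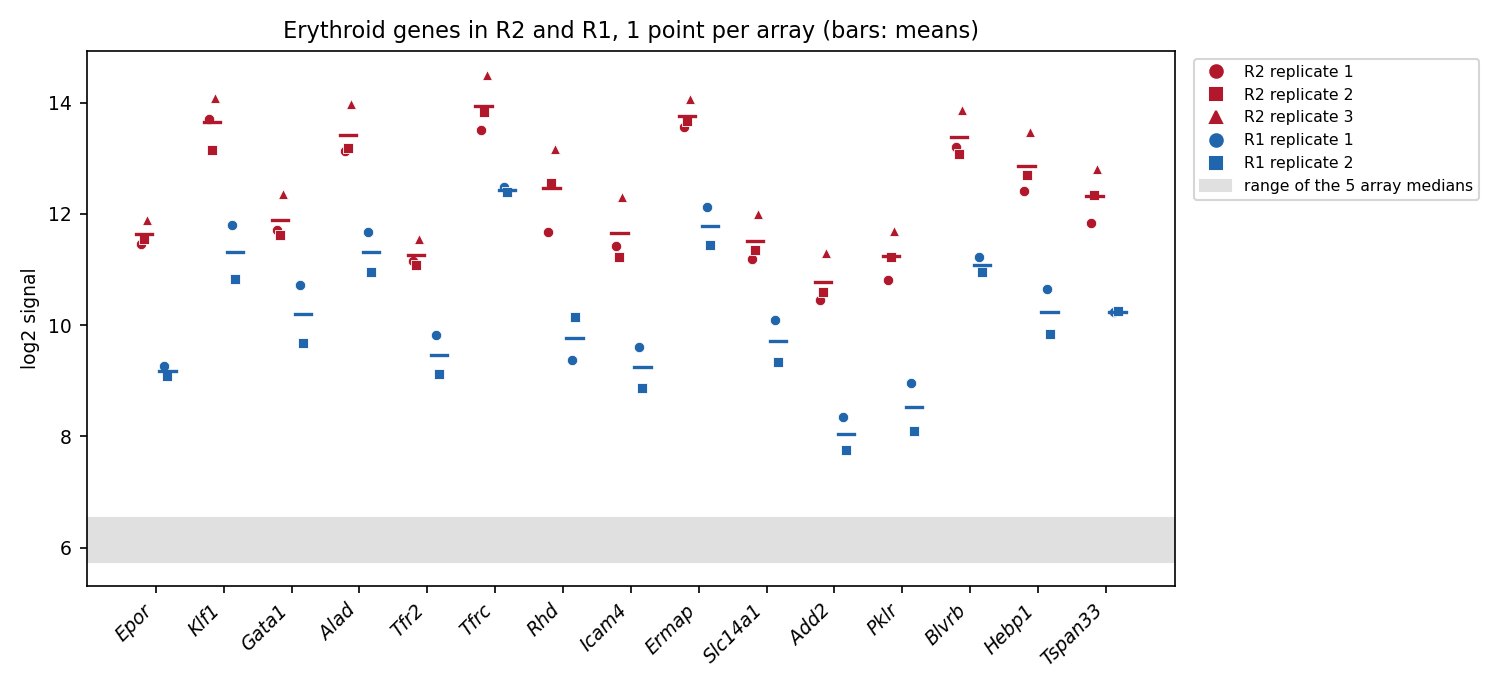
Log2 signal of 15 erythroid genes on each array, with R2 in red on the left of each pair and R1 in blue on the right. Each point is 1 array (circle, square and triangle for replicates 1, 2 and 3), short bars are stage means, and the grey band is the range of the 5 array medians. In each of these genes the 3 R2 points lie above the 2 R1 points, while Gata1 and Tfrc did not pass the test.

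Of 12 genes of the membrane skeleton, Add2 rose and the others did not pass. Add2, the beta subunit of adducin, which caps actin filaments under the membrane, had 10.45, 10.60 and 11.29 in R2 and 8.35 and 7.75 in R1 (2.73 ± 0.42, limma adjusted p = 0.0335). Ank1, which anchors band 3 to spectrin, had 10.70, 11.46 and 11.95 in R2 and 9.06 and 9.20 in R1 (2.23 ± 0.46, limma adjusted p = 0.0776). Sptb, beta spectrin, had 9.04, 10.01 and 10.63 in R2 and 7.32 and 8.33 in R1 (limma adjusted p = 0.207), again separate. Epb42, protein 4.2, had 8.28, 10.54 and 11.38 in R2 and 6.23 and 9.05 in R1, which overlap. The list median was 0.63, with 8 positive and 4 negative changes. Leaving out replicate 2 of R1 gave 1.09 and leaving out replicate 1 of R2 gave 1.00, while leaving out replicate 1 of R1 gave 0.33 and leaving out replicate 3 of R2 gave 0.35. Other cytoskeletal genes rose outside it. Plek2, pleckstrin 2, had 8.14, 8.12 and 9.01 in R2 and 5.67 and 5.93 in R1 (2.62 ± 0.39, limma adjusted p = 0.0335), and its R1 signals were below the median of their arrays. Myh10, a nonmuscle myosin heavy chain, had 12.36, 12.13 and 12.74 in R2 and 11.04 and 10.05 in R1 (1.87 ± 0.34). Septin8 had 11.39, 11.25 and 12.12 in R2 and 10.02 and 9.30 in R1 (1.93 ± 0.34). In both, replicate 3 of R2 was the highest array and replicate 2 of R1 the lowest. The tetraspanin gene Tspan33 had 11.84, 12.34 and 12.81 in R2 and 10.23 and 10.25 in R1 (2.09 ± 0.36).

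Tfrc encodes the sorting marker CD71, so its level serves as a check of the sort. It had 13.52, 13.83 and 14.49 in R2 and 12.48 and 12.39 in R1, higher on every R2 array, with a change of 1.51 ± 0.36 (limma adjusted p = 0.109). Tfr2, the second transferrin receptor, which associates with the erythropoietin receptor, was the 1 call among 17 iron genes, with 11.16, 11.08 and 11.55 in R2 and 9.82 and 9.12 in R1 (1.79 ± 0.30, limma adjusted p = 0.0414). In this list 15 of 17 changes were positive, and the median was 0.77, or 0.52 without replicate 3 of R2. Above R1 on every R2 array lay 8 of the 17, beside 14.2% of all genes. Slc11a2, the endosomal iron transporter, had 9.49, 9.99 and 10.42 in R2 and 8.50 and 8.35 in R1. Slc25a38, a mitochondrial glycine carrier needed for heme synthesis, had 10.88, 10.79 and 11.66 in R2 and 9.59 and 9.02 in R1 (limma adjusted p = 0.087). Among the calls outside the list were 2 transporters of other metals. Slc39a8, which imports zinc and manganese, had 11.60, 12.05 and 12.79 in R2 and 9.98 and 8.86 in R1 (2.73 ± 0.42), and Atp7b, a copper pump, had 10.19, 10.39 and 10.86 in R2 and 8.46 and 7.38 in R1 (2.56 ± 0.45).

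Genes of metabolism contributed single enzymes. Pklr, the pyruvate kinase of liver and red cells, had 10.80, 11.23 and 11.69 in R2 and 8.96 and 8.10 in R1 (2.71 ± 0.37, limma adjusted p = 0.0335). It was the 1 call among 26 glucose metabolism genes, whose median was -0.10 (between -0.21 and -0.01 with 1 array left out) with 12 positive and 14 negative changes. Hk2, a hexokinase, had 11.05, 10.999 and 9.17 in R2 and 11.72 and 11.32 in R1 (limma adjusted p = 0.516). Asns, which makes asparagine, had 13.41, 13.20 and 13.84 in R2 and 11.94 and 11.14 in R1 (1.94 ± 0.33, limma adjusted p = 0.0419). Slc38a5, a glutamine transporter, had 10.62, 10.76 and 11.56 in R2 and 8.96 and 8.30 in R1 (2.35 ± 0.38, limma adjusted p = 0.0359), as the 1 call among 20 amino acid transporters. The stages were separate in both of these genes. Tarsl2, a threonyl-tRNA synthetase, had 10.42, 10.54 and 11.08 in R2 and 9.07 and 8.28 in R1 (2.00 ± 0.35).

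Of 28 antioxidant genes, 22 had positive changes and 2 rose, with a median of 0.60. Above R1 on every R2 array lay 16 of the 28, beside 14.2% of all genes. Blvrb, a flavin and biliverdin reductase abundant in red cells, had 13.21, 13.08 and 13.87 in R2 and 11.22 and 10.95 in R1 (2.30 ± 0.32, limma adjusted p = 0.0335). Gstm5, a glutathione transferase, had 12.37, 12.39 and 13.31 in R2 and 10.83 and 10.44 in R1 (2.06 ± 0.37, limma adjusted p = 0.0477). Gclm, a subunit of the first enzyme of glutathione synthesis, had 11.84, 11.72 and 12.58 in R2 and 10.50 and 10.25 in R1 (limma adjusted p = 0.094). All 3 separated the stages, and Gclm did not pass. Lipid and sphingolipid genes were mixed, with 12 positive and 22 negative changes. Sphk1, which makes sphingosine 1-phosphate, had 11.49, 11.17 and 11.87 in R2 and 9.07 and 7.32 in R1 (3.32 ± 0.51, limma adjusted p = 0.0335). A second probe set of Sphk1 was the only 1 called when every probe set was tested by itself, with a change of 5.46 (limma adjusted p = 0.0237).

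Some genes best known outside red cells had large rises on the log2 scale. Tac2, the precursor of the neuropeptide neurokinin B, had 6.20, 7.63 and 9.46 in R2 and 2.02 and 2.64 in R1 (5.43 ± 0.79, limma adjusted p = 0.0335). Mrap, an accessory protein of the corticotropin receptor, had 9.56, 9.67 and 11.04 in R2 and 7.19 and 4.33 in R1 (4.33 ± 0.80, limma adjusted p = 0.0486). Spon2, a secreted matrix protein, had 6.30, 6.26 and 6.96 in R2 and 3.16 and 3.02 in R1 (3.42 ± 0.59, limma adjusted p = 0.0421). The stages were far apart in all 3. However, the R1 signals of Tac2 and Spon2 lay below the array median, as did those of Myh7b, Stk32b and Plek2. Replicate 2 of R1 was below its array median in Mrap, and also in Gjb2, Aqp3 and Fam83g. The size of a log2 change is least certain for such signals. With log2(signal + 32) the changes were 2.82 for Tac2 and 1.61 for Spon2 (limma adjusted p = 0.0728 and 0.0687), no longer called, while that of Mrap was 3.54. With the mean over all probe sets of a gene, Mrap changed by 2.32 and Spon2 by 2.00, and neither was called (limma adjusted p = 0.159 and 0.172). Myh7b, a myosin heavy chain, had 6.86, 7.06 and 7.20 in R2 and 4.55 and 2.17 in R1 (3.68 ± 0.62). These peptide genes stand in a list of 12 that had been drawn up with earlier results in view, in which 3 rose, 7 changes were positive and 5 negative. The median was 0.22, and it turned to -0.25 when replicate 2 of R1 was left out and to -0.03 when replicate 1 of R2 was.

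Membrane channels and junction proteins also rose singly. Gjb2, the gap junction protein connexin 26, had 8.81, 8.94 and 9.77 in R2 and 6.50 and 5.44 in R1 (3.20 ± 0.48, limma adjusted p = 0.0335). Aqp3, a channel for water and glycerol, had 8.72, 8.77 and 9.63 in R2 and 6.17 and 5.90 in R1 (3.00 ± 0.44, limma adjusted p = 0.0335). Cldn13, a claudin, had 11.79, 12.15 and 13.11 in R2 and 9.34 and 9.69 in R1 (2.84 ± 0.43, limma adjusted p = 0.0335). In the list of 22 connexins and channels, Gjb2 and Aqp3 were the calls, and 10 changes were positive and 12 negative. Lmna, which encodes the A-type lamins of the nuclear envelope, had 10.92, 10.96 and 11.79 in R2 and 8.96 and 7.37 in R1 (3.06 ± 0.44, limma adjusted p = 0.0335). It was the 1 call among 15 lamina genes, whose median was -0.12, with -0.37 as the lowest when 1 array was left out and a value at 0 without replicate 1 of R2. Sun1 and Sun2, which link the lamina to the cytoskeleton, differed by 0.69 ± 0.30 and -0.87 ± 0.54, and neither passed.

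Among the remaining named rises, the changes of Tlcd4 and of Pdia2, a protein disulfide isomerase, were 3.29 ± 0.50 and 3.10 ± 0.57. Those of the kinase gene Stk32b, the Rieske domain gene Rfesd and Fam83g were 2.83 ± 0.52, 2.61 ± 0.40 and 2.38 ± 0.41. Those of Tspo2, a relative of the mitochondrial translocator protein, Garem1, an adaptor of growth factor signalling, and the ABC transporter gene Abcg4 were 2.35 ± 0.43, 2.33 ± 0.38 and 2.31 ± 0.41. Those of the phosphatase gene Ppm1l, Reep6, Slc22a23, Ssx2ip and Crip2 lay between 2.03 and 2.21, and that of Ubac1 was 1.90 ± 0.35. In limma each had an adjusted p between 0.0335 and 0.0486. The 46th gene was an unnamed transcript. Of the 61 called genes, 26 had more than 1 tested probe set, and in 0 of them did another probe set have the opposite sign. This count took only probe sets at or above the array median on at least 2 arrays. With the mean over all probe sets of a gene, 31 of the 61 were also called, and all 61 kept their direction.

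The later levels of the genes that rose differed. Means over the 3 R3 and 2 R5 arrays were 15.12 and 15.47 for Rhd, above every R2 array, and likewise 15.41 and 15.96 for Ermap and 13.95 and 15.20 for Tspo2. For Klf1 they were 15.23 and 15.05. For Gjb2 they were 6.39 and 6.999, below every R2 array, and for Atp7b 9.24 and 8.05. For Sphk1 they were 10.79 and 9.55, also below every R2 array. Epor averaged 12.73 in R3 and 11.80 in R5. In each of the 15 genes that fell, the R5 mean lay above the R2 mean. The R2, R3 and R5 means were 4.55, 6.34 and 9.93 for Gzma and 6.36, 7.97 and 11.54 for Mmp8. For Dusp1 they were 10.02, 12.59 and 11.48, with 12.06 in R1. Array medians were also higher in R5, at 6.91 and 6.75, against 5.74, 5.87 and 6.06 in R2. These levels describe where R2 stands and were not tested here.

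Genes of lymphoid and cytotoxic cells held 4 of the 15 falls. Of 18 measured Gimap, Slfn and granzyme genes, all 18 changes were negative and 4 fell, with a median of -2.64. Below R1 on every R2 array lay 13 of the 18, beside 22.1% of all genes. Gzma, the protease granzyme A of cytotoxic lymphocytes, had 4.40, 5.91 and 3.35 in R2 and 9.28 and 12.77 in R1 (-6.48 ± 1.00, limma adjusted p = 0.0335). Gimap4, a GTPase of lymphocytes, had 5.94, 6.60 and 5.85 in R2 and 8.83 and 10.76 in R1 (-3.66 ± 0.56, limma adjusted p = 0.0335). Gimap8 had 5.14, 4.82 and 5.66 in R2 and 7.92 and 9.43 in R1, and Slfn8 had 5.64, 4.65 and 4.07 in R2 and 7.66 and 8.30 in R1. In all 4 genes replicate 2 was the higher R1 array. Related Gimap and Slfn genes lie in families of similar sequence, so a probe set may read more than 1 member. Gimap6 had 7.09, 6.57 and 4.98 in R2 and 9.78 and 10.36 in R1 (limma adjusted p = 0.052), and Slfn1 had 2.19, 4.08 and 1.50 in R2 and 6.79 and 10.28 in R1 (limma adjusted p = 0.087).

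Markers of lymphocytes moved with this group. All 20 measured lymphocyte markers had negative changes, with a median of -2.02, and 0 were called. Below R1 on every R2 array lay 9 of the 20, beside 22.1% of all genes. Their mean log2 signal was 7.02, 7.71 and 5.61 on the R2 arrays and 7.72 and 10.34 on the R1 arrays, so replicate 2 of R1 stood apart and replicate 1 of R1 was level with replicate 2 of R2. Leaving out replicate 2 of R1 gave a median of -0.95, and leaving out replicate 1 of R1 gave -3.88. Rag2, needed to assemble antigen receptor genes, had 3.44, 6.80 and 2.56 in R2 and 5.04 and 10.003 in R1. Ltb, a lymphocyte cytokine, had 6.91, 7.36 and 2.74 in R2 and 8.94 and 11.57 in R1. Of the 20 markers, 6, 5 and 10 lay below the array median in R2 and 2 and 0 in R1. In bulk fractions, fewer cells of a type and less RNA per cell cannot be told apart, here and in every result above and below. The same holds for more cells and more RNA per cell in the genes that rose.

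**Figure D3:**
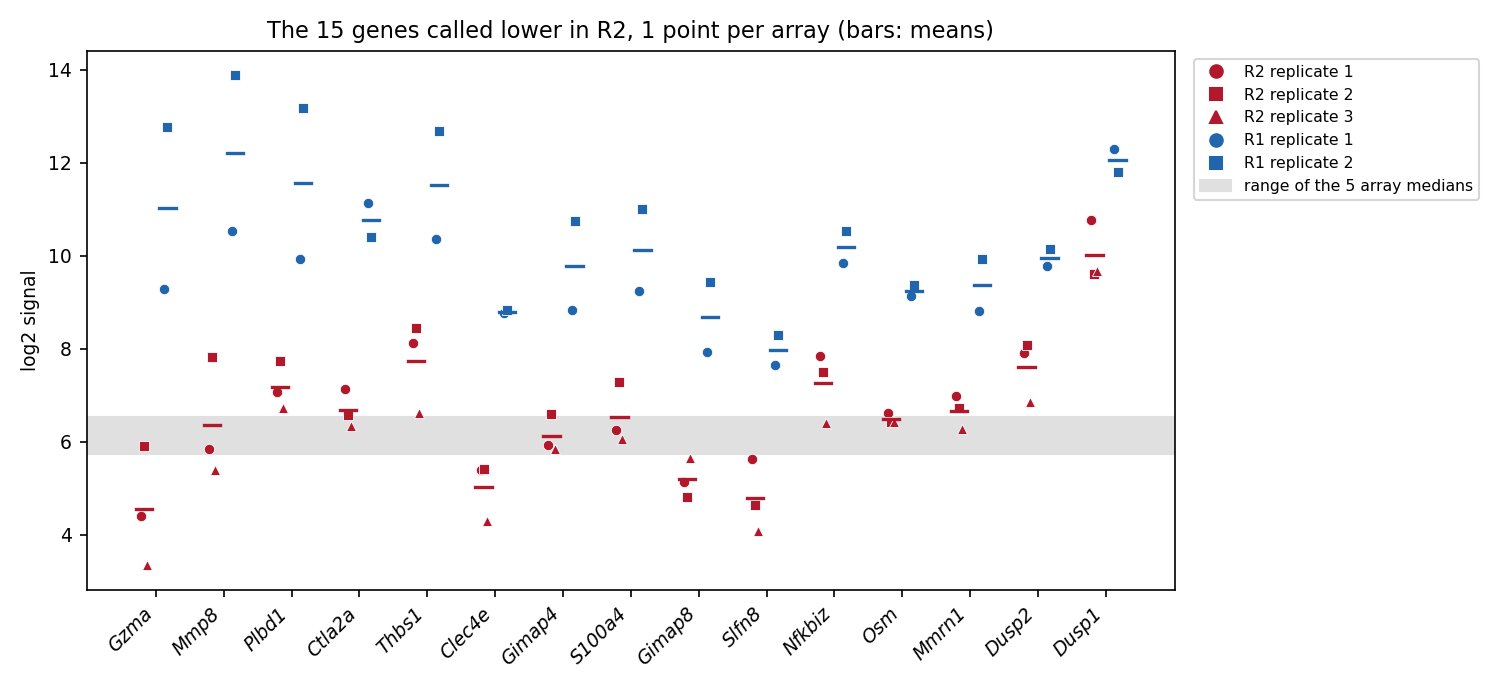
Log2 signal of the 15 genes called lower in R2 on each array, drawn like the plot of erythroid genes with R2 in red on the left and R1 in blue on the right. All R2 points lie below all R1 points of the same gene, and in Gzma, Mmp8 and Plbd1 the R1 arrays lie more than 3 log2 units apart.

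Of 20 measured granulocyte markers, 13 changes were negative and 7 positive, and 1 gene fell, with a median of -1.12. Below R1 on every R2 array lay 8 of the 20, beside 22.1% of all genes. Mmp8, the neutrophil collagenase, had 5.86, 7.83 and 5.39 in R2 and 10.54 and 13.89 in R1 (-5.85 ± 0.96, limma adjusted p = 0.0377). Mmp9, gelatinase B, had 5.14, 7.03 and 3.41 in R2 and 9.41 and 12.41 in R1 (limma adjusted p = 0.0877), and Cd177, a neutrophil surface protein, had 6.35, 9.21 and 4.89 in R2 and 9.62 and 13.25 in R1 (limma adjusted p = 0.158). Mpo and Elane, picked after their values were seen, overlapped between the stages. Mpo, myeloperoxidase, had 15.02, 14.79 and 14.12 in R2 and 14.99 and 14.03 in R1 (0.14 ± 0.75, limma adjusted p = 0.96), and Elane, neutrophil elastase, had 14.29, 14.07 and 12.12 in R2 and 13.85 and 11.53 in R1 (0.80 ± 0.89, limma adjusted p = 0.77). In both genes replicates 1 and 2 of R2 lay above replicate 2 of R1. Whether they differed in response from Mmp8, Mmp9 and Cd177 was not tested. The mean signal of the 20 markers was 11.40, 12.29 and 9.45 in R2 and 12.56 and 12.93 in R1, and the median change was -0.29 without replicate 3 of R2 and -1.81 without replicate 2 of R2. Plbd1, a phospholipase B-like protein, fell too, with 7.08, 7.74 and 6.73 in R2 and 9.94 and 13.19 in R1 (-4.38 ± 0.75, limma adjusted p = 0.0415).

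Monocyte and macrophage markers lay lower in R2, with 21 of 25 changes negative and a median of -1.70. Below R1 on every R2 array lay 13 of the 25, beside 22.1% of all genes. The 1 call was Clec4e, a receptor for microbial glycolipids, with 5.39, 5.41 and 4.30 in R2 and 8.76 and 8.84 in R1 (-3.77 ± 0.59, limma adjusted p = 0.0335). Its R2 signals were below the median of their arrays. Ccr2, a chemokine receptor of monocytes, had 9.36, 10.43 and 6.64 in R2 and 11.61 and 12.18 in R1, and Cybb, of the phagocyte oxidase, had 10.88, 11.83 and 8.60 in R2 and 12.45 and 13.95 in R1 (limma adjusted p = 0.17 and 0.181). The mean signal of the 25 markers was 7.77, 8.13 and 7.33 in R2 and 8.68 and 9.81 in R1. S100a4, a calcium-binding protein of motile cells, fell, with 6.26, 7.30 and 6.06 in R2 and 9.24 and 11.02 in R1 (-3.59 ± 0.63, limma adjusted p = 0.0427). In its list of S100, annexin and actin-bundling genes 25 of 27 changes were negative. The list median was -1.43, or -0.78 without replicate 3 of R2. Of the 27, 21 lay below R1 on every R2 array, beside 22.1% of all genes.

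Of 22 megakaryocyte and platelet markers, 20 changes were negative and 2 genes fell, with a median of -0.94. Leaving out replicate 1 of R1 gave -0.59, and leaving out replicate 2 of R2 gave -0.61. Of the 22, 8 lay below R1 on every R2 array, beside 22.1% of all genes. Thbs1, thrombospondin 1, had 8.14, 8.44 and 6.61 in R2 and 10.37 and 12.69 in R1 (-3.80 ± 0.69, limma adjusted p = 0.0486), and Mmrn1, multimerin 1, had 6.98, 6.72 and 6.29 in R2 and 8.82 and 9.93 in R1 (-2.71 ± 0.50, limma adjusted p = 0.0491). Pf4, a platelet chemokine named after its values were seen, had 11.45, 9.12 and 10.15 in R2 and 11.27 and 9.84 in R1, which overlap. All 16 mast cell and basophil markers had negative changes, with a median of -2.10 and 0 called. Of these, 13 were without overlap, beside 22.1% of all genes. Cpa3, a mast cell protease, had 9.02, 8.90 and 6.30 in R2 and 11.43 and 10.88 in R1 (-3.08 ± 0.80, limma adjusted p = 0.142). Their mean signal was 7.13, 7.72 and 6.06 in R2 and 8.96 and 9.25 in R1.

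Liver and vessel markers were lower as well. All 22 hepatocyte and hepatoblast markers had negative changes, and the median was -1.22, with 0 called. Below R1 on every R2 array lay 17 of the 22, beside 22.1% of all genes. Afp, the fetal plasma protein, had 10.38, 12.79 and 11.52 in R2 and 12.66 and 13.71 in R1 (limma adjusted p = 0.295), and it averaged 15.01 in R3 and 15.80 in R5. The markers' mean signal was 6.37, 7.22 and 6.79 in R2 and 8.23 and 7.94 in R1. Of 26 endothelial and stromal markers, 24 changes were negative, with a median of -1.39 and 0 called. Tek, a receptor of endothelial cells, had 4.66, 4.74 and 1.96 in R2 and 7.54 and 7.29 in R1 (limma adjusted p = 0.11). On the R2 arrays 15, 21 and 14 of these 26 were below the array median, and 6 and 12 on the R1 arrays, so many of these signals are dim. The part that these other cell types had in the genes that fell was not tested.

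**Figure D4:**
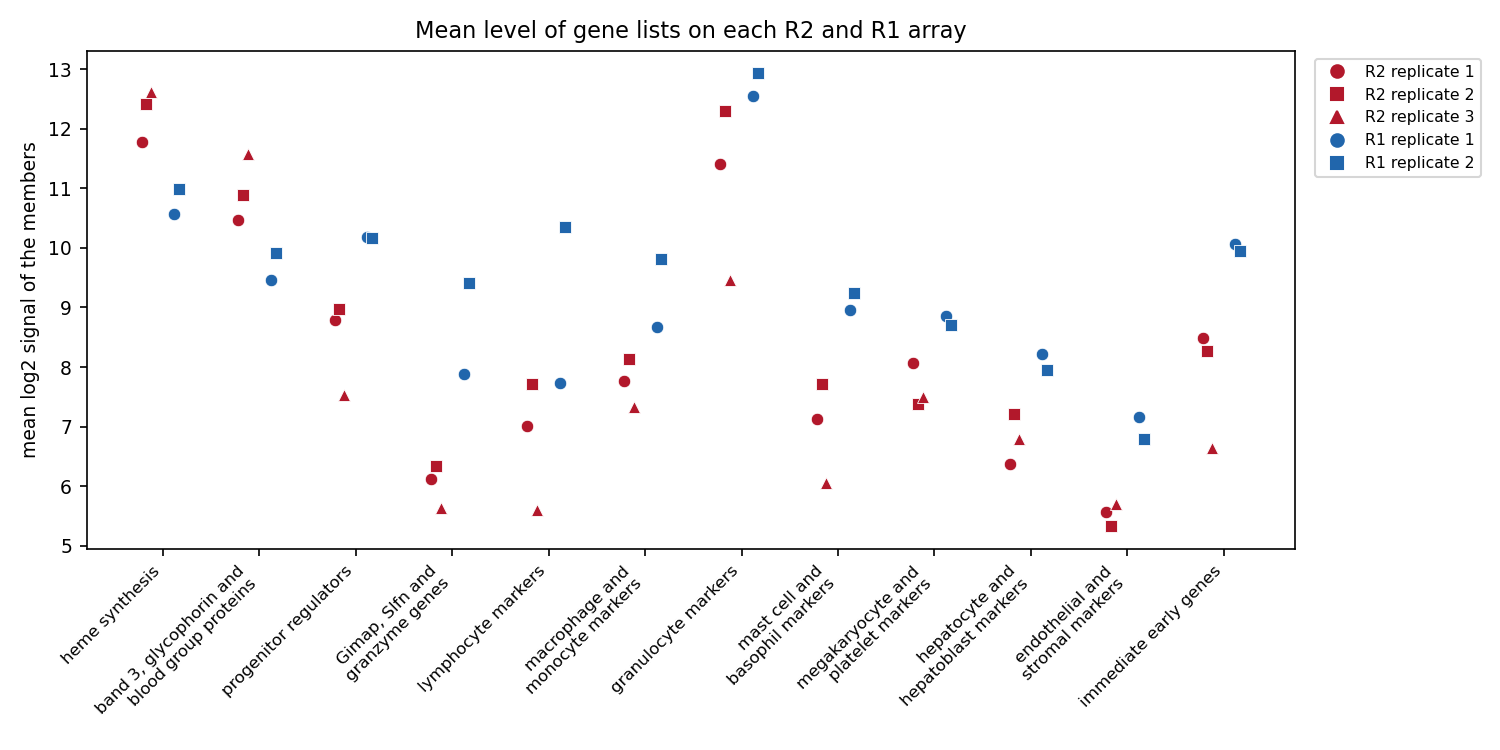
Mean log2 signal of the measured members of erythroid, progenitor and other cell type lists on each array, with R2 in red on the left and R1 in blue on the right and replicates as circles, squares and triangles. Lymphocyte markers show replicate 2 of R1 above the other 4 arrays, and granulocyte markers show replicate 3 of R2 below them.

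Immediate early genes, which respond within minutes to growth factors and to stress such as cell handling, were lower in R2. Of 23 measured, 22 changes were negative and 2 genes fell, with a median of -2.45. Below R1 on every R2 array lay 19 of the 23, beside 22.1% of all genes. Dusp1 and Dusp2, phosphatases of MAP kinases, were the calls. Dusp1 had 10.77, 9.61 and 9.68 in R2 and 12.31 and 11.81 in R1 (-2.04 ± 0.37, limma adjusted p = 0.0486), and Dusp2 had 7.91, 8.09 and 6.86 in R2 and 9.78 and 10.14 in R1 (-2.34 ± 0.41, limma adjusted p = 0.0452). Fos had 12.42, 11.16 and 5.81 in R2 and 13.62 and 13.42 in R1 (-3.72 ± 1.46, limma adjusted p = 0.299), and Zfp36, which destabilises cytokine mRNAs, had 10.11, 9.52 and 7.10 in R2 and 11.99 and 12.34 in R1 (limma adjusted p = 0.087). Fos on replicate 3 of R2 stood far below the other arrays, and without that array its change was -1.73 and the list median was -1.73. Nfkbiz, an inducible partner of NF-kB, fell outside the list, with 7.86, 7.51 and 6.41 in R2 and 9.85 and 10.54 in R1 (-2.94 ± 0.47, limma adjusted p = 0.0345). Whether the time or handling of the sort differed between stages is not given in the sources used here, and its part was not tested.

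Inflammatory and antigen presentation genes also had mostly negative changes. Of 26 chemokine and cytokine genes 25 changes were negative, with Osm the 1 call and a median of -1.84. Without overlap were 15 of them, beside 22.1% of all genes. Cxcl2, a neutrophil attractant, had 5.72, 4.79 and 3.08 in R2 and 9.19 and 10.07 in R1 (-5.10 ± 1.28, limma adjusted p = 0.128), and Ccl5 had 0.96, 3.11 and 4.55 in R2 and 7.18 and 8.92 in R1 (limma adjusted p = 0.0877), with dim R2 signals. All 15 antigen presentation genes had negative changes, with a median of -1.49, or -0.92 without replicate 2 of R1. Without overlap were 14 of them, beside 22.1% of all genes. H2-Eb1, a class II chain, had 3.92, 5.92 and 4.43 in R2 and 7.51 and 9.03 in R1 (limma adjusted p = 0.076). Of 29 interferon response genes 28 changes were negative, with a median of -1.25 and 0 called, and of 32 integrin and adhesion genes 27 were negative, with a median of -1.37 and the rise of Icam4 as the 1 call. Ctla2a, an inhibitor of cysteine proteases that stood in no list, fell, with 7.14, 6.58 and 6.33 in R2 and 11.13 and 10.40 in R1 (-4.08 ± 0.67, limma adjusted p = 0.0377).

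Genes of growth and division had small changes, nearly all of them positive. All 36 DNA replication genes had positive changes and 0 were called, with a median of 0.50. Above R1 on every R2 array lay 27 of the 36, beside 14.2% of all genes. Orc2, of the origin recognition complex, had 11.40, 10.94 and 11.86 in R2 and 10.17 and 9.83 in R1 (1.40 ± 0.38, limma adjusted p = 0.163). Cdc6, which loads the replicative helicase, had 11.68, 12.43 and 12.91 in R2 and 11.30 and 11.40 in R1 (limma adjusted p = 0.291). All 32 ribosome biogenesis genes (median 0.59) and all 33 respiratory chain genes (median 0.34) also had positive changes, with 0 called. Above R1 on every R2 array lay 8 and 11 of them, beside 14.2% of all genes. The sizes leaned on replicate 2 of R1. Nop58, a nucleolar protein, had 11.92, 11.63 and 12.23 in R2 and 11.43 and 10.62 in R1, with replicate 2 the lower R1 array. Of 31 mitosis genes 27 changes were positive, with a median of 0.28, and of 27 genes of folate, purine and pyrimidine synthesis 23 were, with a median of 0.56. Without replicate 2 of R1 the medians were 0.33 for DNA replication, 0.15 for ribosome biogenesis, 0.12 for the respiratory chain, 0.14 for mitosis and 0.22 for folate, purine and pyrimidine synthesis. Without replicate 1 of R1 they were 1.06 for ribosome biogenesis, 0.58 for the respiratory chain and 0.89 for the folate list. The single genes of these lists did not pass the test, which adjusts over all 13100 genes. An unadjusted limma p under 0.05 with a rise was reached by 6 of the 36 DNA replication genes, beside 516 of all 13100. It was reached by 1 gene each of the mitosis, respiratory chain and folate lists and by 0 of the ribosome biogenesis list.

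The list of 28 G1 cyclins and cell cycle brakes did not stand out from all genes in separation of the stages. At an unadjusted limma p under 0.05, 7 of the 28 were lower in R2 and 0 higher. Of all 13100 genes, 1234 were lower and 516 higher. Of its changes 20 were negative, 5 genes lay below R1 on every R2 array, beside 22.1% of all genes, and 0 were called. The median was -0.22, between -0.43 and -0.06 with 1 array left out, and 0.13 with arrays centred on their medians. The members with large changes are named for their size alone. Cdkn1a, which encodes the inhibitor p21, had 7.86, 7.25 and 6.50 in R2 and 9.21 and 9.30 in R1 (-2.06 ± 0.51, limma adjusted p = 0.126), and Btg1, an antiproliferative gene, had 10.62, 11.66 and 10.37 in R2 and 11.83 and 13.37 in R1 (limma adjusted p = 0.218). Ccnd1, cyclin D1, had 9.05, 8.80 and 7.71 in R2 and 10.51 and 9.72 in R1 (limma adjusted p = 0.229). These 3 separated the stages without a call. In the Bcl2 family and death list 15 of 23 changes were negative, with a median of -0.54. Birc3, an inhibitor of apoptosis, had 9.22, 9.23 and 8.21 in R2 and 10.51 and 11.04 in R1 (limma adjusted p = 0.0943), and Pmaip1, which encodes NOXA, had 8.61, 8.28 and 6.19 in R2 and 9.85 and 9.57 in R1 (limma adjusted p = 0.27). The Myc and Mxd list had a median of -0.57 over 11 genes with 0 called, and leaving out replicate 2 of R1 gave -0.26, where leaving out replicate 1 gave -0.97. Lists with medians near 0 took either sign as 1 array was left out: between -0.17 and 0.22 for cholesterol, between -0.23 and 0.07 for amino acid transporters and between -0.43 and 0.06 for connexins and channels.

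**Figure D5:**
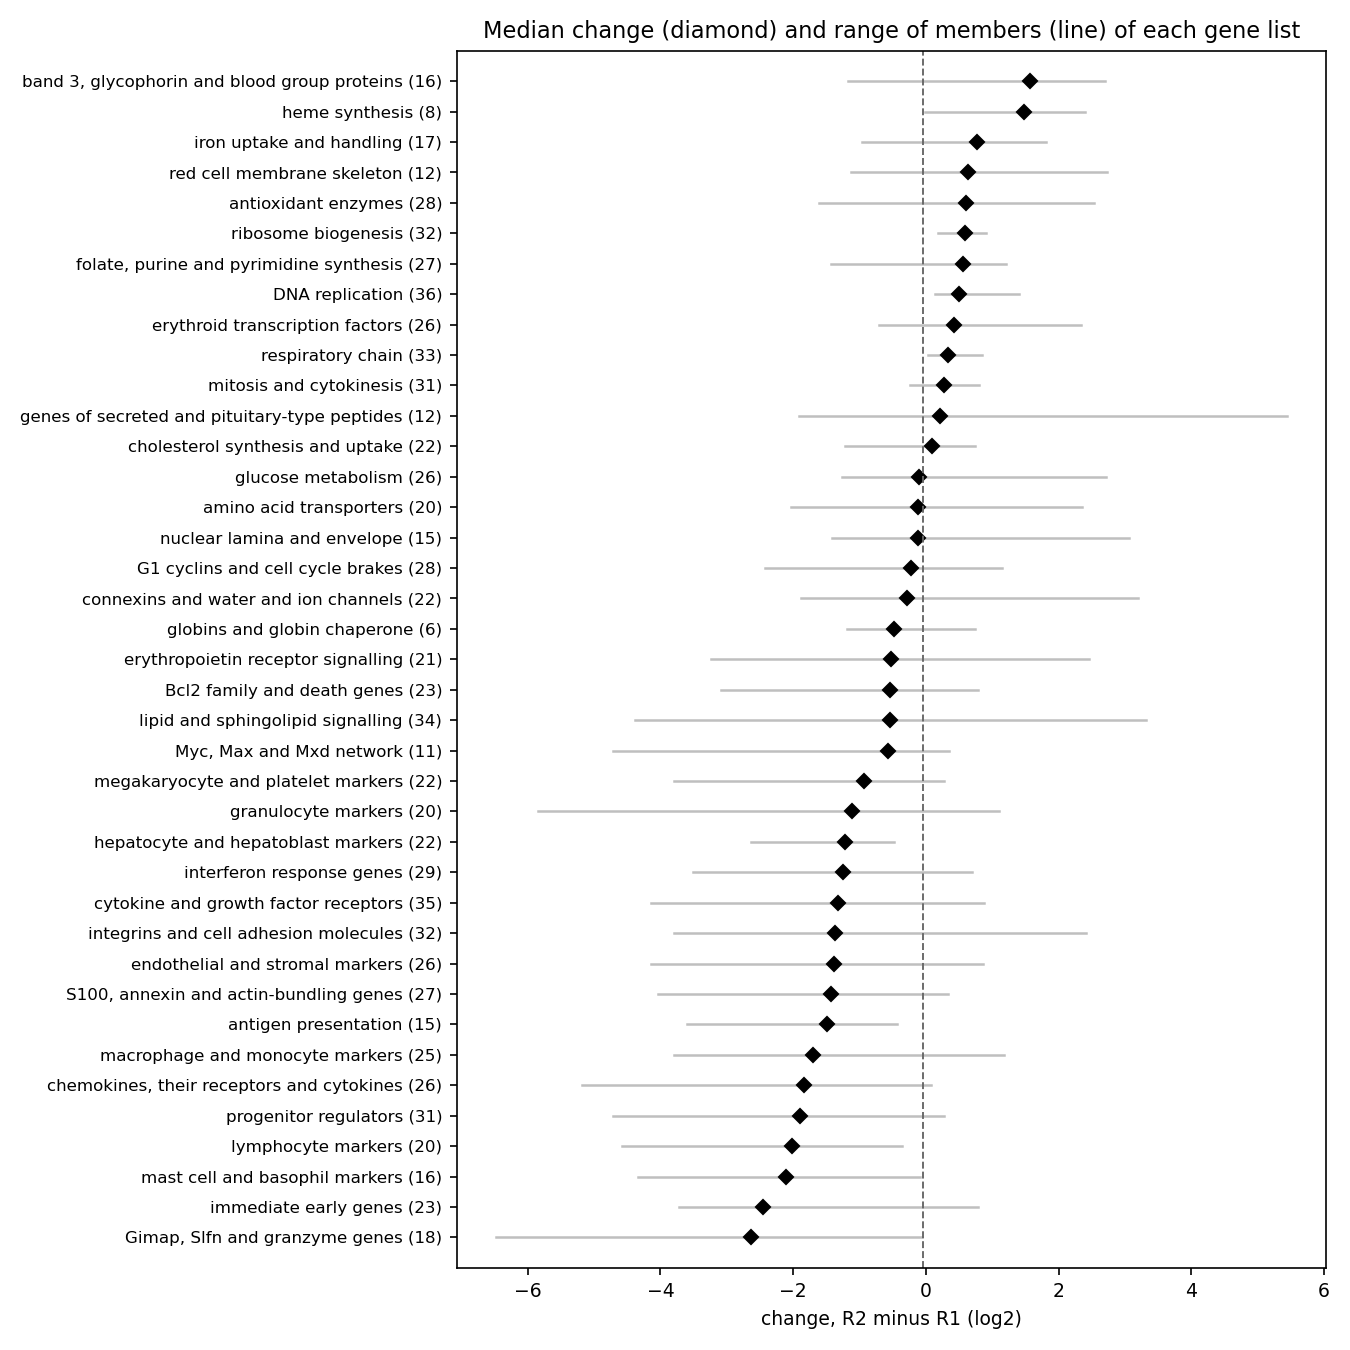
Median change (R2 minus R1, log2; diamond) and range of the measured members (line) of each of the 39 gene lists, with the number of measured members in parentheses. The dashed line is the median of all genes, -0.05. Blood group proteins (1.57) and heme synthesis (1.48) have the highest medians, and the Gimap, Slfn and granzyme genes (-2.64) and immediate early genes (-2.45) the lowest.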

How the data were processed

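The authors deposited 1 linear signal intensity per probe set and array, for 45101 probe sets of which 64 are controls, and on each array the mean after trimming 2% at each end was 500. MAS5 and limma were named, without versions, per the submitters' processing notes. A second deposited table holds the authors' log2 stage means and p-values, which were used only for the count given beside the calls and match adjusted p-values. The labels name Cy5 as the dye, while the probe sets are those of a short-oligonucleotide array, and no background or detection calls were used.

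Intensities were taken to log2 with no pseudocount and no further normalization. Of the probe sets, 34945 had 1 gene in the platform annotation, 932 had several and 9160 had none listed. Each gene was represented by its brightest probe set on average over the 11 arrays, and genes at or above the array median on at least 2 arrays were tested, which left 13100, of which 67 had no gene identifier match. All 11 arrays entered 1 fit (limma 3.58.1 in R 4.3.3; a mean per stage, eBayes with an intensity trend, 6 residual degrees of freedom), with Benjamini-Hochberg adjustment over all genes and a threshold of 0.05. Errors are standard errors of that fit. The fitting code was tested on simulated data.

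The text takes its genes from every called gene with a symbol, from the 5 members with the largest change and any called member of each of 39 lists, and from Tfrc, Kit, Gata1, Gata2, Spi1, Klf1 and Epor; a gene named beyond this is said to be so. The members, lists and rule were chosen with earlier results of these data known. Of 1002 listed genes 871 were measured. Promoters came from RefSeq (GRCm38.p6) by symbol. Alternatives were quantile normalization, centring, no filter, a pseudocount of 32, other probe set rules, other variance and sample choices, the replicate number as a block, and leaving out each array.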

Additional observations from a re-analysis of the deposited data

How the results depend on the processing

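The limma count of 61 genes was 64 after quantile normalization, 57 with no filter and 69 with log2(signal + 32). It was 100 (84 higher) with each array centred on its median, which moved the median change of all genes to 0.30 from -0.05; 36 (23 higher) with the mean over all probe sets of a gene; and 88 with the arrays numbered 1 and 2 alone in a replicate block, where 39 were lower. Genes called lower numbered 8 after quantile normalization and 26 with the pseudocount, and the share higher was 75.4% in the reported fit, 87.5% after quantile normalization and 84.0% after centring. Testing all 45037 probe sets one by one gave 1 call, higher in R2, and 0 lower, with 3959 at an unadjusted p under 0.05. The replicate block over all arrays, eBayes without the trend and a fit of the R1 and R2 arrays alone each gave 0 calls; under the block 1704 genes had an unadjusted p under 0.05. The labels say that extraction dates went with sets of replicates, and if a set is a replicate number, the block is the closer model of the design and no gene is called. Same-numbered arrays deviated together at r = 0.22 in both pairs. Deviations from the mean of 2 R1 arrays mirror each other, so the pairs are not independent and cannot settle the pairing. With 1 array left out the counts ran between 0 and 87, of genes higher between 0 and 65 and of genes lower between 0 and 22. All 61 genes kept their direction in every fit made per gene. For the fits that left out 1 array this was fixed in advance, because the stages did not overlap in these genes. Changes that turned sign were those of Atp5g1 (-0.13) and Aldoc (0.067) with the mean over probe sets, and, with 1 array left out, of Hbb-bh1 (between -0.20 and 1.68), Hbb-b2 (between -1.71 and 2.71, and -0.25 without replicate 2 of R2), Hbb-y (between -1.04 and 0.0205), Hba-x (between -2.57 and 0.18) and Kit (between -0.042 and 0.57); the cause was not tested. Of the list medians, 63 of 780 values under the alternatives moved by more than the SD within stages of the list's median signal per array. Many of the 780 could not move. Leaving out an R3, R4 or R5 array, no filter, no trend and a fit of R1 and R2 alone left every list median as it was. With 2 R1 arrays and a median SE of 0.50, precision is limited by the number of arrays, and signals near or below the array median, such as those of Tac2 in R1, carry the least certain changes.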
